A study of Mus musculus with 2 samples.

Results

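The cells described here are 215 endothelial cells of a control mouse kidney that carried the capillary gene Plvap and no UMI of Ehd3 or Sox17. The cells were chosen by UMI counts of 10 genes and taken from 6295 control barcodes that passed a filter on depth, of 9681 deposited control barcodes and 28678 in the whole series. The study profiled single cells from 1 control kidney sample and 1 kidney sample with folic acid (FA) nephropathy, both labelled wild type and both labelled kidney with no part of the organ named. FA is a vitamin that injures kidney tubules at high dose. The labels state no strain, age, dose or time, and do not say how many animals each library came from. Each condition was 1 library, so no test was run: every interval below is a 95% interval that covers counting error only, and no difference has a replicate check.

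Peritubular capillaries are the fine vessels that surround the kidney tubules and take up the water and solutes that the tubules reclaim. Their endothelium is thin and perforated by fenestrae that are closed by diaphragms, which are built of the protein encoded by Plvap. Glomerular capillaries filter the blood and are known for Ehd3, and arteries and the descending vasa recta of the medulla are known for Sox17. The working label of the 215 cells was peritubular capillary endothelium, with the markers Plvap, Kdr, Emcn, Igfbp5, Gpihbp1 and Esm1. Plvap, Kdr and Emcn were themselves used to choose the cells, so their levels are a description of the choice, and only Igfbp5, Gpihbp1 and Esm1 were measured apart from it.

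The control library was recognised by barcode names that start with the letter C, since the other names start with FA, and no stated key links either start to a sample. The control library held 63646459 UMIs (median 4935 per barcode) and the FA library 84138607 (median 2768). Xist had 15 UMIs in the control library and 104149 in the FA library, and Ddx3y 3928 and 0, so this difference in sex-linked genes and the treatment cannot be told apart. The libraries shared 54 barcode sequences, of which 2 belonged to gated cells.

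Cells were chosen in steps. Of the 6295 filtered control barcodes, 1144 had 4 or more UMIs over Kdr, Emcn, Flt1, Egfl7, Cdh5 and Pecam1. Of these, 1090 had at most 1 UMI of Lrp2, an endocytic receptor of the proximal tubule, and 1008 of those had Plvap. The final condition, no UMI of Ehd3 or Sox17, left 215 cells, 3.42% of the filtered control barcodes (Clopper-Pearson 2.98 to 3.89%). The other endothelial barcodes with at most 1 Lrp2 UMI were 864 with Ehd3 or Sox17 and 11 with none of Plvap, Ehd3 and Sox17. Of the 864, 716 carried Ehd3, 382 carried Sox17 and 234 carried both.

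The gated cells had a median of 2690 UMIs (540 to 27261) and 1552 genes, and a median mitochondrial share of 1.03%. The 864 barcodes with Ehd3 or Sox17 were deeper, with a median of 3684.5 UMIs. Ehd3 stood at 394 CPM (UMIs of a gene per 1000000 UMIs summed over a group) in those 864, at which a barcode of 2690 UMIs would hold 1.06 Ehd3 UMIs on average. The condition on Ehd3 was thus read from about 1 molecule per cell. Barcodes just outside it, with Plvap and exactly 1 UMI of Ehd3 or Sox17, numbered 217. Their levels were 6736 CPM for Igfbp5, 1161 for Gpihbp1, 2684 for Esm1 and 3188 for Plvap, beside 5889, 1157, 2278 and 2874 in the gated cells just inside. On Plvap the levels were lower outside than inside, over few cells: the 11 endothelial barcodes without Plvap, Ehd3 or Sox17 had 1287 CPM of Igfbp5, 59.4 of Gpihbp1 and 119 of Esm1, against 3436, 565 and 1131 in the 8 gated cells with a single Plvap UMI.

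Igfbp5, which encodes a secreted binding protein for insulin-like growth factors, was present in nearly every gated cell. Its level was 5889 CPM (5712 to 6070), with a median of 16 UMIs per cell and a highest value of 95. An Igfbp5 UMI was found in 95.8% of gated cells, and in 89.2% of the 204 that had 1000 or more UMIs once each was thinned to 1000. T cells of the same library, with a median of 3314 UMIs, had Igfbp5 at 13.6 CPM and in 1.12% of thinned cells. The gated cells thus lay far above the T cells, which stand here for the level that free RNA gives.

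Esm1 and Gpihbp1 were found in fewer cells than Igfbp5. Esm1, which encodes endocan, a secreted proteoglycan of angiogenic endothelium, had 2278 CPM (2169 to 2392), a median of 5 UMIs per cell and a highest value of 45. Its share was 84.2% of gated cells and 69.6% after thinning, against 0.56% of thinned T cells. Gpihbp1, whose protein carries lipoprotein lipase across capillary endothelium, had 1157 CPM (1079 to 1238), a median of 2 UMIs and a highest value of 26. Its share was 73.0% of gated cells and 53.4% after thinning, against 0.56% of thinned T cells. Of the genes used by the gate, Plvap had a median of 8 UMIs per gated cell, Emcn (a sialomucin of the endothelial surface) 9 and Kdr (VEGF receptor-2) 5.

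**Figure D1:**
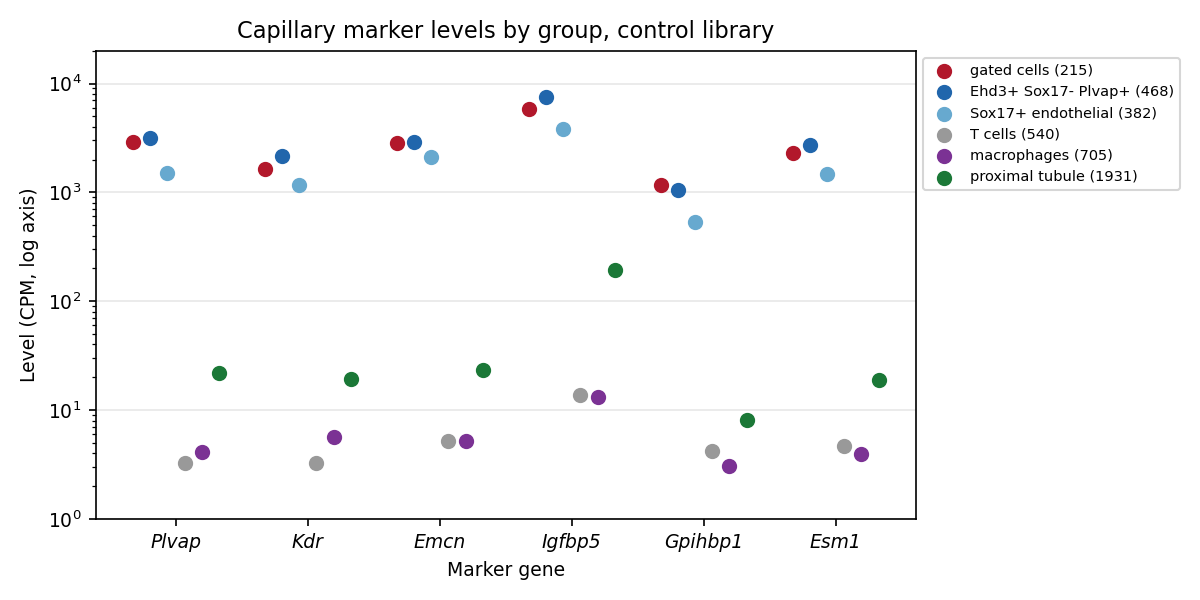
Levels of the 6 capillary markers (CPM of summed UMIs, log axis) in 6 groups of control cells, 1 point per gene and group, with the number of cells in brackets. The gated cells lie beside the Ehd3+ Sox17- Plvap+ cells for every marker, for example at 5889 and 7530.5 CPM for Igfbp5, and T cells and macrophages lie below 20 CPM.

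Against all other filtered control barcodes, which include the 864 endothelial barcodes, the gated cells were higher in most genes of the capillary endothelium list. Of 14181 genes with 50 or more UMIs over both groups, 2274 (16%) were at least 2-fold higher in the gated cells and 2519 (17.8%) at least 2-fold lower. Among the higher genes, 626 had under 10 UMIs in the gated cells. Of the capillary endothelium list, 10 of 12 were higher and 1 lower, with a median log2 ratio of 3.10 beside 0.11 over all genes tested. The highest ratio among genes at 100 CPM or more was that of Gpihbp1, at 12.8 (11.9 to 13.8). Next came Rgcc, a regulator of the cell cycle (11.2), Fam167b (11.1) and Car8 (10.9). After them were Ednrb, the type B endothelin receptor (10.8), and Fabp4, a fatty acid carrier of capillaries (10.7). Slc43a3, Lama4, Ramp3 and Thrsp followed, at 10.3, 10.2, 10.1 and 9.99. These ratios depend on what the other barcodes are. With every barcode that carried UMIs of tubule, immune, mural or stromal cells left out of both groups, an alternative chosen after the data were seen, 727 of 11083 genes were higher (6.56%), 1952 were lower (17.6%), and the Gpihbp1 ratio was 3.53. In that setting 8 of 11 capillary genes were higher and none lower. It is called the setting without other-cell barcodes below, and its counts are given beside those of each list. By its construction this setting removes most tubule and immune cells from the comparison group. A loss of higher calls in it therefore cannot tell which genes are particular to the gated cells. List counts against other barcodes are to be read beside the shares of all genes tested. These shares were 16% higher and 17.8% lower with every barcode, and 6.56% and 17.6% without other-cell barcodes.

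Single genes of lipid handling were well detected. Fabp4 stood at 4082 CPM (3935 to 4233) in the gated cells and in 93.5% of them. Fabp5, a second fatty acid carrier, had 303 CPM, and Scarb1, the receptor for high-density lipoprotein, 92.6 CPM. Of the fatty acid and lipoprotein list, 5 of 20 were higher and 6 lower than in other barcodes, beside 16% and 17.8% of all genes tested. Without other-cell barcodes, 7 of 20 were higher and 5 lower. Lpl, the lipase that GPIHBP1 binds, was among the lower genes, at 18.2 CPM in the gated cells and 140.4 in other barcodes. Cd36, a fatty acid translocase found in many capillary beds, had only 19 UMIs in the gated cells (26.7 CPM).

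Several receptors for vascular signals were detected. Of the VEGF receptors, Flt1 had 2208 CPM, Kdr 1626 and Flt4 122, and the coreceptors Nrp1 and Nrp2 had 1120.2 and 211. The VEGF ligands had few UMIs: Vegfa had 11 UMIs and Vegfc 8 in the 215 cells, and Vegfd and Pgf none. Tek and Tie1, the angiopoietin receptors, had 466 and 296 CPM, whereas the ligand Angpt2 had 18 UMIs and Angpt1 none. For endothelin, the receptor Ednrb stood at 734 CPM and the ligand gene Edn1 at 8.42, whereas for apelin both the ligand Apln (96.9) and the receptor Aplnr (85.6) were detected. Npr3, the clearance receptor for natriuretic peptides, had 445 CPM, and Ramp2 and Ramp3, partners of the adrenomedullin receptor, 564 and 309. Of the vasoactive list, 16 of 28 tested genes were higher than in other barcodes and 7 lower, and without other-cell barcodes 7 of 19 were higher and 4 lower. Against the Ehd3 or Sox17 barcodes, 2 of 23 were higher and 7 lower, beside 2.34% and 5.4% of all genes tested.

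Of the fenestra and caveola list, 8 of 16 genes outside the gate were higher than in other barcodes and 3 lower. Without other-cell barcodes only 1 of 16 was higher and 3 were lower, beside 6.56% and 17.6% of all genes tested. Most of the higher calls were thus lost in a setting that removes most tubule and immune cells from the comparison group. What remained lay near the shares of all genes. Against the Ehd3 or Sox17 barcodes, none of 15 fenestra and caveola genes was higher and 3 were lower, beside 2.34% and 5.4% of all genes tested. Cav1 and Cavin1, which encode the coat of caveolae, stood at 70.2 and 46.3 CPM in the gated cells and at 193 and 187 in the Sox17 barcodes. Ehd4, which encodes a membrane-shaping ATPase of the same family as Ehd3, had 1144 CPM and was found in 92.1% of gated cells. In the basement membrane list, 12 of 22 genes were higher than in other barcodes and 3 lower, and without other-cell barcodes 8 of 22 were higher and 4 lower. The collagen IV chains Col4a1 and Col4a2 had 339.7 and 159 CPM, and the perlecan gene Hspg2 354. Against the Ehd3 or Sox17 barcodes, none of 21 basement membrane genes was higher and 4 were lower, beside 2.34% and 5.4% of all genes tested. The basement membrane list summed to 5750 CPM in the gated cells and 9159 in those barcodes.

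Transcription factors of endothelium were the next group. Of 30 tested, 20 were at least 2-fold higher than in other barcodes and 1, Mecom, was lower. Without other-cell barcodes, 9 of 29 were higher and 4 lower. Against the Ehd3 or Sox17 barcodes, 1 of 30 was higher and 3 were lower, beside 2.34% and 5.4% of all genes tested. Klf2, which is induced by blood flow, had 1593 CPM (1502 to 1689) and was found in 85.1% of gated cells, but T cells had 1669. Sox18, of the SOX F family like Sox17, had 234 CPM against 0.94 in T cells, and Meox1, a homeobox gene, 187 against 0. Epas1, the hypoxia-inducible factor HIF-2 alpha, had 515 CPM in the gated cells and 965 in the Sox17 barcodes.

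Counts for the BMP and Notch pathways depended on the other barcodes. Of the BMP and TGF-beta list, 11 of 19 were higher than in other barcodes and 3, the ligands Bmp2, Bmp4 and Bmp6, were lower, and without other-cell barcodes 4 of 19 were higher and 3 lower. Eng, the endothelial coreceptor endoglin, had 950.4 CPM in 87.9% of cells, Acvrl1 (the receptor ALK1) 159, and Id1 and Id3, targets of BMP signalling, 550.3 and 1519. Bmp4 and Bmp6 had 4 UMIs each in the 215 cells. Against the Ehd3 or Sox17 barcodes, none of 19 BMP and TGF-beta genes was higher and 4 were lower, beside 2.34% and 5.4% of all genes tested. Of the Notch list, 7 of 13 were higher than in other barcodes and 2 lower. Without other-cell barcodes 1 of 11 was higher and 2 lower, beside 6.56% and 17.6% of all genes tested. The receptors Notch1 and Notch4 had 192 and 63.2 CPM, the ligand Dll4 140.4 and the ligand Jag1 9.83. Against the Ehd3 or Sox17 barcodes, 4 of 11 Notch genes were lower, beside 5.4% of all genes tested, and none was higher. The 4 were Hey1, Jag1, Jag2 and Notch4, with Jag1 at 73.9 CPM in those barcodes and Notch4 at 131. Hey1 and Jag1 are also arterial genes, whose direction is tied to the removal of Sox17 from the gated cells. Against Ehd3+ Sox17- Plvap+ cells, none of 8 tested Notch genes was lower (1 of 7 without other-cell barcodes).

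Surface receptor, adhesion and clotting genes were higher in smaller numbers once other-cell barcodes were left out. Of the growth factor and G-protein receptor list, 17 of 23 were higher than in other barcodes, with a median log2 ratio of 2.26, and 9 of 23 without other-cell barcodes. Adgrl4, an adhesion G-protein receptor, had 814 CPM in 81.4% of cells, and Plxnd1, a semaphorin receptor, 222. Of the adhesion list, 15 of 23 were higher and 2 lower, against 7 and 2 of 23 without other-cell barcodes. Cd34 had 594 CPM, Esam 493 and Icam2 317, while Vcam1, an inducible leukocyte receptor, had 24 UMIs (33.7 CPM). Of the haemostasis list, 11 of 20 were higher and 3 lower, against 4 and 2 of 17. F8, clotting factor VIII, had 262 CPM in 48.4% of cells and Thbd, thrombomodulin, 192, whereas the 17 Vwf UMIs came from 3 cells. Against the Ehd3 or Sox17 barcodes, no tested receptor (23), adhesion (22) or haemostasis (16) gene outside the gate was higher, beside 2.34% of all genes tested. In these lists 2, 3 and 0 genes were lower, beside 5.4%.

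Igfbp5 was not followed by its whole family. Igfbp3, another binding protein, had 1377 CPM (1292 to 1466) and was found in 77.7% of gated cells, but Igfbp7 had 101 CPM against 1105 in other barcodes and 718 in the Sox17 barcodes. Of the IGF list, 3 of 13 genes were higher than in other barcodes and 6 lower (3 and 5 without other-cell barcodes). Of the immediate early and dissociation list, 2 of 22 were higher and 1 lower, with a median log2 ratio of -0.01. Without other-cell barcodes none was higher and 9 of 22 were lower, beside 17.6% of all genes tested. Fos had 1106 CPM in 43.7% of gated cells and Jun 2279.7 in 81.4%.

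Interferon-stimulated genes were high in the gated cells as a whole list. All 24 of the list were at least 2-fold higher than in other barcodes, with a median log2 ratio of 2.19. Ifitm3 had 2332 CPM and was found in 96.7% of gated cells, Rsad2 1023 CPM in 74.4%, and Bst2 799 CPM in 80.0%. Of the MHC class I list, 13 of 14 were higher, with a median log2 ratio of 1.45; H2-D1 had 2951 CPM and H2-K1 2490.3. The nuclear-encoded oxidative phosphorylation list went the other way, with 22 of 27 lower and a median log2 ratio of -1.23. With barcodes carrying other cells' UMIs left out, 15 of 24 interferon-stimulated, 8 of 14 MHC class I and 22 of 27 oxidative phosphorylation genes were still past 2-fold in those directions. The Ehd3 or Sox17 barcodes had nearly the same sum over the interferon list, 7351 CPM beside 7965 (7759 to 8175) in the gated cells. The MHC class I list summed to 8697 CPM in the Ehd3 or Sox17 barcodes, 10144 in the gated cells and 9978 in T cells. The oxidative phosphorylation list was higher in the gated cells (8035 CPM) than in the Ehd3 or Sox17 barcodes (6702). It stood at 7915 CPM in T cells and 23923.5 in proximal tubule cells.

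The second comparison set the gated cells against the 864 endothelial barcodes with Ehd3 or Sox17. Of 9718 genes tested, 227 (2.34%) were at least 2-fold higher in the gated cells and 525 (5.4%) at least 2-fold lower. The genes that were lower included most of the arterial, descending vasa recta and mural lists. Of the arterial list, 13 of 15 tested genes outside the gate were lower, with a median log2 ratio of -2.91 beside -0.03 over all genes tested. Of the descending vasa recta list, 4 of 7 were lower, with a median of -2.34, and of the stromal and pericyte list 6 of 7, with a median of -4.57. Sox17, which is known for arteries and the descending vasa recta, was removed by the choice of cells from the gated cells only. The direction of both lists, and of their single genes named below, is thus tied to the choice.

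Aqp1, the water channel of the descending vasa recta and proximal tubule, had 6 UMIs in the 215 gated cells, 8.42 CPM (3.09 to 18.3), and 1176 CPM in the Ehd3 or Sox17 barcodes. Tspan8, a tetraspanin, stood at 4.21 and 558 CPM. Scin, which encodes an actin-severing protein, and Slc14a1, the urea transporter of the descending vasa recta, had no UMI in the gated cells and 180 and 164 CPM in the comparison group. Against a floor of 3 UMIs over the gated cells, they were at least 42.8-fold and at least 39.0-fold lower. Fbln5, an elastic fibre protein, had 2 UMIs in the gated cells, a ratio of 0.0132 (0.00160 to 0.0478). Cldn5, a tight junction claudin, had 15.4 CPM against 329, Edn1 8.42 against 146, and Vim, an intermediate filament gene, 192 against 1483. Genes of smooth muscle and pericytes were lower too: Rgs5, Tagln and Myh11 had no UMI in the gated cells and 132, 115 and 100.3 CPM in the comparison group, and 23 of the 864 barcodes (2.66%) carried 2 or more mural or stromal UMIs against 1 of 215. Few barcodes held these mural UMIs: Rgs5 had 671 in 15 of the 864, Tagln 583 in 17 and Myh11 509 in 11.

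The comparison group was divided, after its values had been seen, into 468 barcodes with Ehd3 and Plvap but no Sox17, 382 with Sox17 and 14 with Ehd3 but neither Sox17 nor Plvap. The arterial and descending vasa recta genes were high in the Sox17 barcodes. Aqp1 stood at 7.85 CPM in the first and 2104 in the second, Cldn5 at 8.31 and 585, Slc14a1 at 0 and 295, and Tspan8 at 7.85 and 996. The gated cells lay near the first group for each of these genes. The mural UMIs were divided otherwise: of the 671 Rgs5 UMIs, 432 were in the 14 barcodes, 236 in the Sox17 barcodes and 3 in the 468, and of the 509 Myh11 UMIs, 219 were in the 14 and 290 in the Sox17 barcodes.

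Against those 468 cells alone, the gated cells differed in few genes. Of 7417 genes tested, 103 (1.39%) were at least 2-fold higher and 101 (1.36%) at least 2-fold lower, and Ehd3, used by the gate, was among the latter. No tested gene of the capillary, tip cell, fenestra, VEGF, Notch, Wnt or vasoactive lists passed 2-fold in either direction. Outside the gate, 11, 12, 15, 4, 8, 7 and 15 genes of these lists were tested. Without other-cell barcodes, 1 of 7 Notch genes was lower. Gpihbp1 had a ratio of 1.09 (1.01 to 1.18), Fabp4 1.02 (0.978 to 1.06), Rgcc 0.968 (0.889 to 1.05), Esm1 0.839 (0.793 to 0.886) and Igfbp5 0.782 (0.756 to 0.809). The label's markers therefore did not set the gated cells apart from Ehd3-positive, Sox17-negative cells. Of the other genes of the glomerular list, only Plat, tissue plasminogen activator, had enough UMIs to be tested. It had 192 CPM in the gated cells and 213 in the 468. Tbx3 had 18.2 and 12.5 CPM and Mapt 14 and 9.69, with too few UMIs to be tested. Against all Ehd3 or Sox17 barcodes, Tbx3 was among the lower genes, but without other-cell barcodes none of 4 tested glomerular genes was lower. Plat was 2.84-fold (2.38 to 3.37) higher in the gated cells than in other barcodes. The gated cells are accordingly called by their rule here, as Plvap-positive endothelial cells without Ehd3 or Sox17 UMIs.

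**Figure D2:**
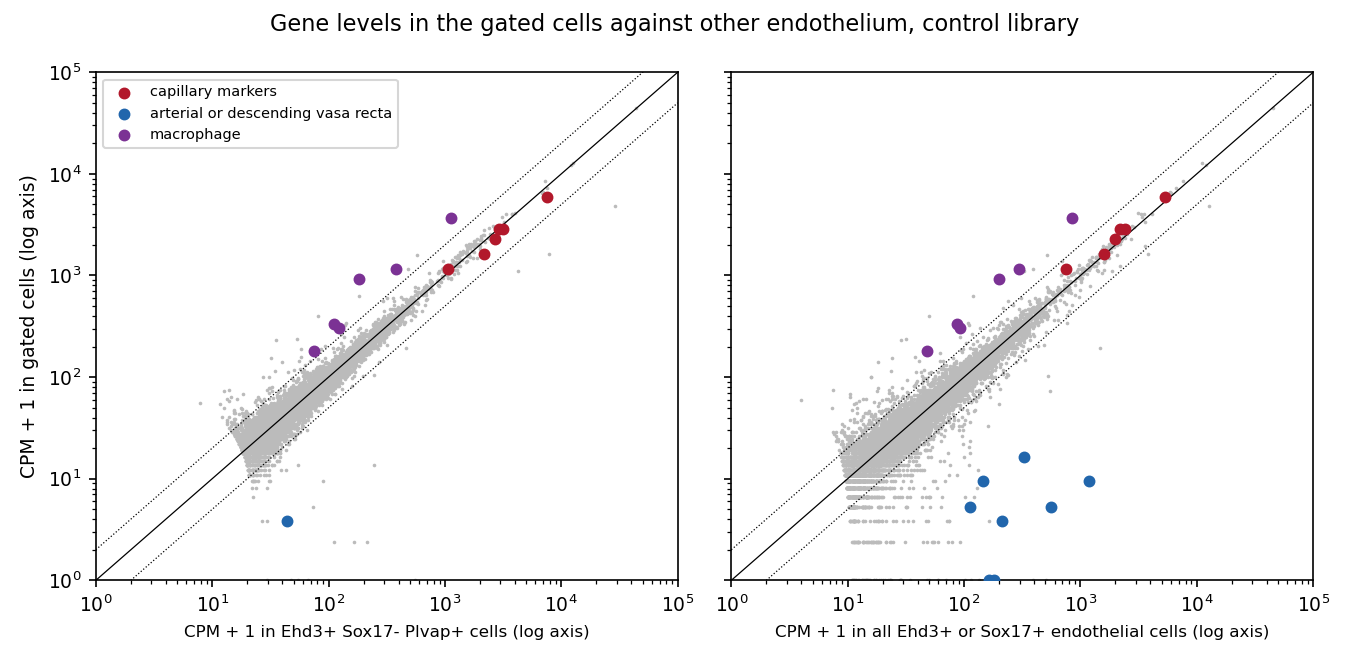
Level of each tested gene in the gated cells (CPM + 1, log axis) against Ehd3+ Sox17- Plvap+ cells (left, 7417 genes) and against all Ehd3+ or Sox17+ endothelial cells (right, 9718 genes), 1 point per gene, with equality as a solid line and 2-fold differences as dotted lines. Capillary markers lie near equality in both, arterial and descending vasa recta genes lie far below the line on the right, as for Aqp1 at 8.42 and 1176 CPM, and macrophage genes lie above it in both.

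Apelin signalling was the pair of capillary and tip cell genes past 2-fold against the whole comparison group. Aplnr, the apelin receptor, had 61 UMIs in the gated cells, 85.6 CPM, against 42.5, a ratio of 2.01 (1.49 to 2.69). Apln, its ligand, had 69 UMIs, 96.9 CPM, against 47.3, a ratio of 2.05 (1.54 to 2.69). Both intervals reach well under 2. Against the 468 Ehd3 cells the ratios were 1.37 (0.998 to 1.87) and 1.79 (1.31 to 2.44).

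**Figure D3:**
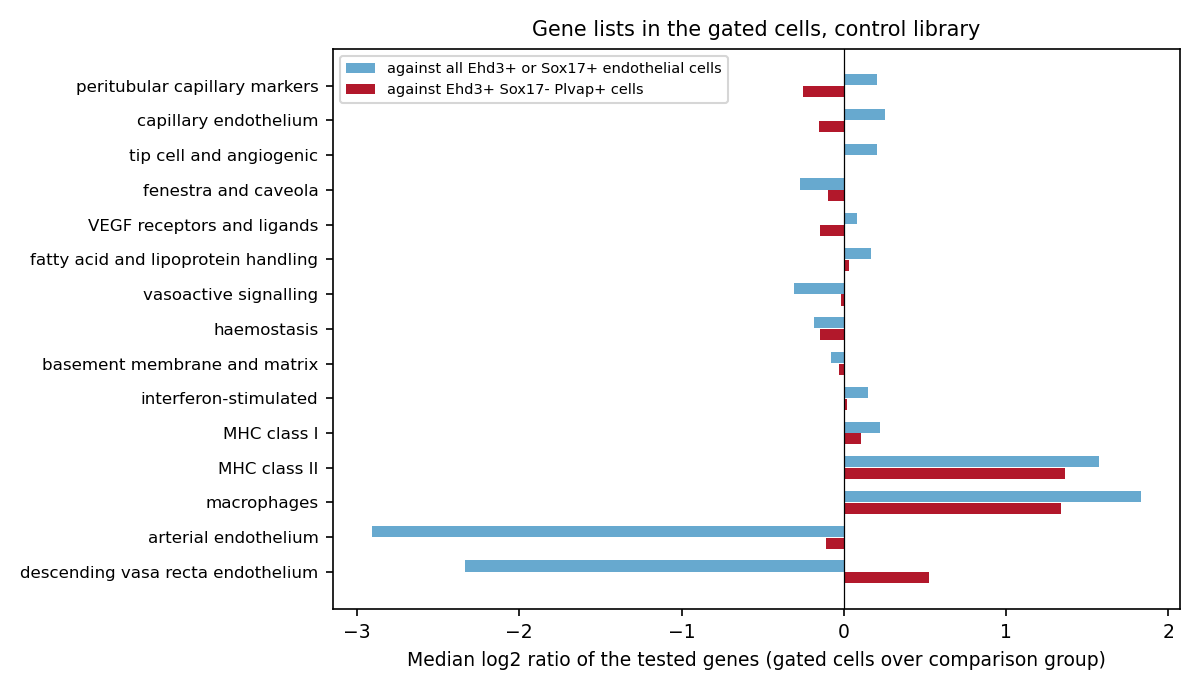
Median log2 ratio of the tested genes of 15 lists, gated cells over all Ehd3+ or Sox17+ endothelial cells (light blue) and over Ehd3+ Sox17- Plvap+ cells (red), 1 bar per list and comparison. The arterial list is at -2.91 in the first and -0.11 in the second, and the MHC class II and macrophage lists are above 1 in both.

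Immune and tubule genes led the genes that were higher in the gated cells. Against the Ehd3 or Sox17 barcodes, 9 of 9 tested macrophage genes and 6 of 7 MHC class II genes were higher, and among single genes Ccl3 and Ccl4 (chemokines), Lyz2 (lysozyme), Umod (uromodulin, a product of the thick ascending limb) and Spink1 (a protease inhibitor at 2834 CPM in proximal tubule cells here) were among the highest. Few cells held these UMIs. Umod was in 4 gated cells and 97 of its 100 UMIs were in 1 of them. Lyz2 was in 17 cells, with 358 of 662 UMIs in 1, and Creld2, an endoplasmic reticulum chaperone gene with the highest ratio (8.33, 6.62 to 10.5), had 150 of 166 UMIs in 1 cell. Igkc, an immunoglobulin light chain, was lower in the gated cells (4863 against 12729 CPM), and 1 cell held 3352 of its 3464 UMIs. Its direction was reversed without other-cell barcodes, with a ratio of 2.33 (1.77 to 3.05) against 0.382 (0.369 to 0.395) with every barcode. Against the Ehd3+ Sox17- Plvap+ cells the Igkc ratio was 0.170 with every barcode and 1.84 (1.36 to 2.49) without other-cell barcodes.

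Barcodes that carried UMIs of other cell types were counted by thresholds set after the data were seen. Of the gated cells, 19 had 3 or more UMIs of macrophage genes, 18 had 2 or more of T or NK cell genes, 7 had 3 or more of tubule genes, 3 had 2 or more of B or plasma cell genes and 1 had 2 or more of mural or stromal genes. In all these were 37 of 215 (17.2%), with a median of 6381 UMIs, and 151 of 864 (17.5%) in the comparison group. With them left out, 178 gated cells remained, 85 of 8469 genes (1%) were higher than in the Ehd3 or Sox17 barcodes and 439 (5.18%) lower. Creld2 then had a ratio of 1.19 (0.589 to 2.19) and Edem1 0.853 (0.413 to 1.59), while Ccl3, Ccl4, Lyz2, Il1b, C1qb, C1qc and Umod had too few UMIs to be tested. Without likely doublets, the log2 ratios of Ccl4 and Lyz2 were -1.20 and -3.21, and that of Creld2 was 3.69.

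MHC class II genes remained in part. Cd74, the invariant chain, had 3643 CPM in the 215 cells and 526 in the 178, against 851 and 213 in the comparison group, and its ratio was 4.28 (4.07 to 4.49) with and 2.47 (2.13 to 2.86) without the other-cell barcodes. H2-Eb1 had 3.91 (3.58 to 4.26) and 2.12 (1.62 to 2.74). T cells, which stand here for the level that free RNA gives, had Cd74 at 277 CPM and H2-Eb1 at 67.7. The 213 CPM of Cd74 in the comparison group without other-cell barcodes lay below that of T cells. The part of free RNA in these ratios was not tested. Of the list, 3 of 6 tested genes stayed past 2-fold. Against the 468 Ehd3 cells none of the 6 did, and Cd74 had a ratio of 1.52 (1.30 to 1.78). The capillary markers were relatively higher without those barcodes, at 7791 CPM for Igfbp5, 2979 for Esm1 and 1518 for Gpihbp1. Of the 103 genes higher than in the 468 cells, 81 had too few UMIs without the other-cell barcodes and 3 stayed past 2-fold (18 of 5949 genes, 0.303%, were higher in that setting and 67, 1.13%, lower), at Hacd2 2.10 (1.13 to 3.82), Zbp1 2.01 (1.14 to 3.49) and Lrrc47 2.81 (1.57 to 5); these 3 are named because their values were seen.

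Variation among the gated cells was measured over the 204 cells thinned to 1000 UMIs, as the Fano factor, the variance of the counts over their mean. The 15 highest factors belonged to immune genes, mitochondrial RNAs and Malat1, a nuclear RNA. Igkc had 95.4, S100a9 (a neutrophil gene, in 1 gated cell) 46.0 and the mitochondrial messenger mt-Cytb 72.5. An mt-Cytb UMI was found in 27.0% of gated cells, whereas mt-Rnr2, a mitochondrial ribosomal RNA with a factor of 20.5, was found in 99.5% and Malat1 (11.9) in 98.6%. Among the markers, Igfbp5 had 4.37, Esm1 3.38 and Gpihbp1 2.92, and the genes used to choose the cells had less: Plvap 1.78, Emcn 1.76 and Kdr 1.5.

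Detection of Gpihbp1 differed between cells with and without Esm1. Gpihbp1 was in 90 of 142 cells with Esm1 (63.4%, 54.9 to 71.3%) and in 19 of 62 without it (30.6%, 19.6 to 43.7%), and these intervals do not overlap. Aplnr was in 10 of 109 cells with Gpihbp1 (9.17%) and in 1 of 95 without it (1.05%), with intervals that overlap. By Igfbp5 it went the other way: Aplnr was in 6 of 182 cells with Igfbp5 (3.30%, 1.22 to 7.04%) and in 5 of 22 without it (22.7%, 7.82 to 45.4%), with intervals that do not overlap. Nr2f2, a transcription factor of veins, was in 4.92% of cells with Igfbp3 (1.83 to 10.4%) and in 15.9% of cells without it (8.72 to 25.6%). Vwf, which encodes von Willebrand factor and marks larger vessels and veins, was in 3 cells. All 3 had Nr2f2, and none had Igfbp5, Igfbp3, Esm1 or Gpihbp1 in the thinned counts. Fos, an immediate early gene induced by tissue dissociation, was in 26.6% of cells with Gpihbp1 (18.6 to 35.9%) and in 42.1% of cells without it (32 to 52.7%), with intervals that overlap. In all, 45 pairs of 10 genes were examined, and the intervals were apart for Gpihbp1 by Esm1, Aplnr by Igfbp5, Vwf by Igfbp5 and Vwf by Nr2f2. The thinned cells include barcodes that carried UMIs of other cell types, and pair counts without those barcodes are not given. The cells of 1 library share their source.

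**Figure D4:**
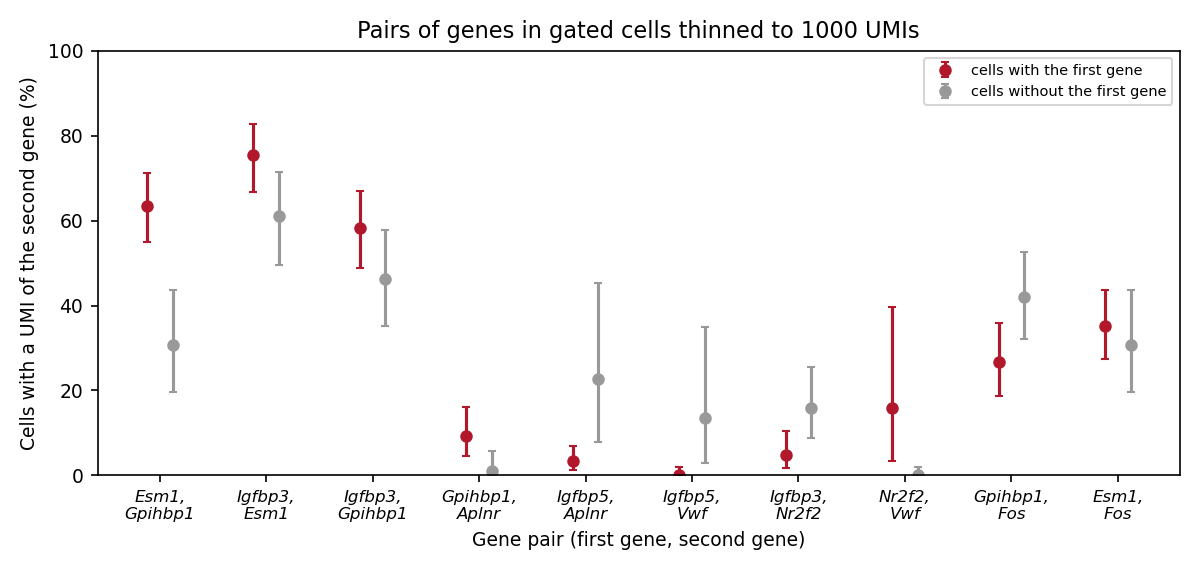
Share of thinned gated cells with a UMI of the second gene of a pair (%), among cells with the first gene (red) and without it (grey), with exact 95% binomial intervals as bars. The intervals are apart for Gpihbp1 by Esm1, at 63.4 and 30.6%, Aplnr by Igfbp5, at 3.30 and 22.7%, Vwf by Igfbp5 and Vwf by Nr2f2, and overlap for the other plotted pairs.

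The same gate found 70 cells in the FA library, 0.440% of 15922 filtered barcodes (0.343 to 0.555%). Their values are set beside those of the control cells without a test, since each condition is 1 library, Xist and Ddx3y differed between the libraries, and fewer cells of a kind and a change within cells cannot be told apart. The FA cells had a median of 2365.5 UMIs. The last condition of the gate kept 70 of 128 Plvap-positive endothelial barcodes in FA and 215 of 1008 in control. Without other-cell barcodes, arterial genes summed to 852 CPM in control and 1262.5 in FA, and glomerular genes to 330 and 770. Descending vasa recta genes summed to 1188 and 1004, and podocyte genes to 783 and 2481. Over all gated cells, the median UMIs per cell in control and FA were 2 and 1 for the arterial and for the podocyte list. They were 0 and 1 for the glomerular list and 2 and 2 for the vasa recta list. The podocyte list includes Podxl, which is also in the adhesion list. The vasa recta list includes S100a4, S100a6 and Crip1, and T cells had that list at 3826 CPM. Whether the control and FA cells are the same mix of cells was not tested. Gpihbp1 stood at 1157 CPM (1079 to 1238) in control and 1209 (1074 to 1356) in FA, Fabp4 at 4082 and 4270.2, Rgcc at 999 and 982 and Plvap at 2874 and 2484. Igfbp5 stood at 5889 (5712 to 6070) and 1109.8 (981 to 1251), Esm1 at 2278 and 937, Emcn at 2838 and 969.6, Kdr at 1626 and 792, and Cd300lg, a receptor of capillary endothelium, at 1028 and 214.5. Mgp, matrix Gla protein, stood at 71.6 (53.3 to 94.1) and 1543 (1391 to 1708), but was found in only 2.79% and 5.71% of the cells, so its level rests on few cells in both. Col4a1 stood at 339.7 and 1225, in 52.6% and 85.7% of cells, and Ifitm3 at 2332 and 4501, in 96.7% and 98.6%. The interferon-stimulated list summed to 7965 CPM in control and 12522 in FA, and to 9705 and 14462 without other-cell barcodes. The MHC class II list summed to 7322 and 821, but to 1404 (1297 to 1517) and 316 (234 to 416) without other-cell barcodes. Over all gated cells, the median was 2 UMIs of the list per control cell and 1 per FA cell. Other-cell barcodes were 13 of the 70 FA cells (18.6%), and immunoglobulin Igkc stood at 4863 and 23624 CPM; the part of Igkc in the other values was not tested.

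**Figure D5:**
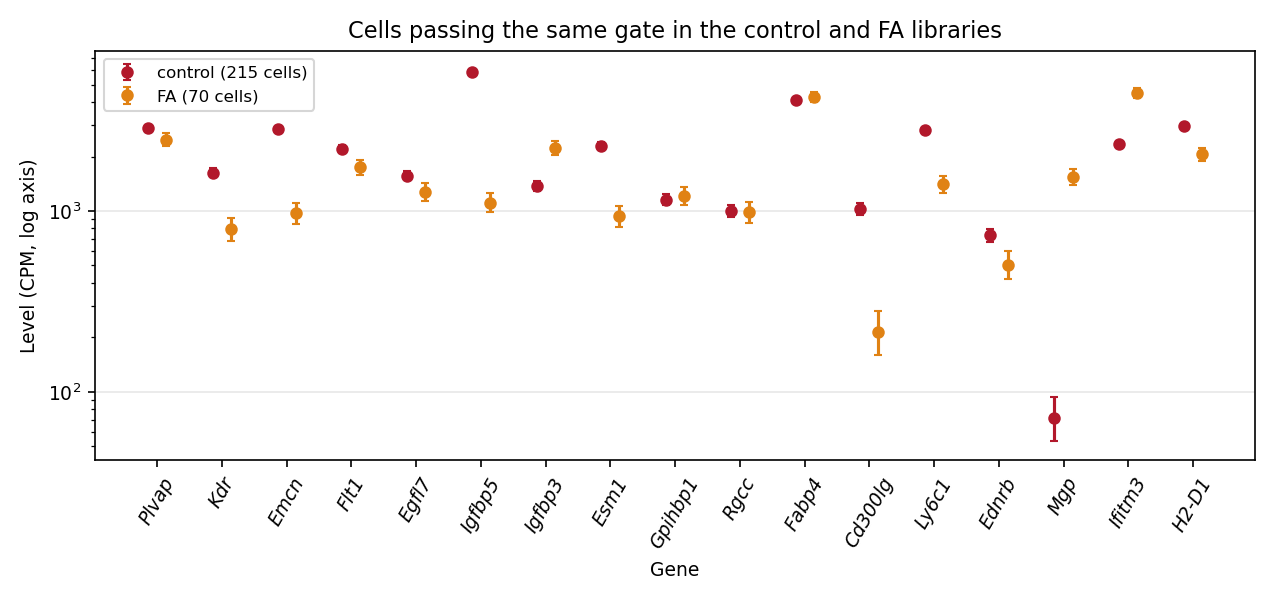
Levels of 17 genes (CPM of summed UMIs, log axis) in cells that passed the same gate in the control library (red, 215 cells) and the FA library (orange, 70 cells), with exact 95% Poisson intervals that cover counting error only. Gpihbp1, Fabp4 and Rgcc lie together in both libraries, Igfbp5 is at 5889 in control and 1109.8 in FA, and Mgp, held by few cells, is at 71.6 and 1543.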

How the data were processed

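Droplet single-cell libraries of control and FA kidney were deposited as 1 matrix of whole UMI counts, 21855 genes by 28678 barcodes; the counts in the deposited matrix were checked to be whole and not below 0. Per the submitters' processing notes, Seurat and the mm10 build were used; no aligner, counter or version is stated there. Barcodes were assigned by the start of their names. The gate needed 500 UMIs, 200 genes and a mitochondrial share of at most 50%, then the endothelial conditions given above. The members and gene lists were chosen with earlier results of these data known, and the Ehd3 split, the comparison limited to Plvap and the filter on other-cell barcodes were added after the data were seen.

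UMIs were summed per group and scaled to CPM. Levels have exact Poisson, shares exact Clopper-Pearson and ratios exact conditional binomial intervals at 95%. A gene was tested with 50 or more UMIs over both groups and called at a ratio of 2 or more, or 0.5 or less. A group at 0 was set to 3 counts, and no ratio was given where the other group was itself under that floor. Shares of cells with a UMI are of unthinned cells unless called thinned; gene pairs and Fano factors used cells thinned to 1000 UMIs. Likely doublets, scored by Scrublet at 0.8% per 1000 barcodes, were kept, as the rule has no such filter; 488 control barcodes had such scores, 31 of them gated cells and 113 of the 864. Named genes were every gate and marker gene, the 20 highest by CPM, the 15 highest and 15 lowest ratios against Ehd3 or Sox17 endothelium, the 10 highest against other barcodes, the 15 highest Fano factors, and members of the lists; not every such gene is printed. The ratio calculation was tested on simulated data. A search of marker promoters for short motifs was run and left out after its result was seen, as nothing measured here bears on promoters. Analyses used Python 3.11.15, scipy 1.17.1 and scanpy 1.11.5.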

Additional observations from a re-analysis of the deposited data

How the results depend on the processing

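No paired analysis was possible because each condition is 1 library. The gate gave 215 cells, 184 without likely doublets and 178 without barcodes carrying other cells' UMIs. Against Ehd3 or Sox17 endothelium, 227 genes were higher and 525 lower; the counts were 731 and 1240 at a ratio of 1.5, 507 and 896 at 20 UMIs, and 103 and 101 against the Ehd3 cells with Plvap and without Sox17, with 121 higher without likely doublets and 85 higher without other-cell barcodes. Against other barcodes, 2274 genes were higher, 3833 without a filter on barcodes, 4118 at a ratio of 1.5 and 727 without other-cell barcodes, a setting that by its construction removes most tubule and immune cells from the comparison group. The other 44 recomputed counts moved by less than 1.5 times. Log2 ratios against Ehd3 or Sox17 endothelium that changed sign were Umod at an endothelial sum of 6 or more (-2.03), Ccl4 (-1.20) and Lyz2 (-3.21) without likely doublets, and Edem1 without other-cell barcodes (-0.23); the cause was not tested. With each cell weighing the same, Igfbp5 was at 7217 CPM, Esm1 at 2820 and Gpihbp1 at 1373. Depth limits the gate itself, since a zero count of Ehd3 was read from cells with a median of 2690 UMIs.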
